A study of Mus musculus with 12 samples.

Results

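Described here are 9 genes that encode the transcription factor NRF2 and the proteins that bind it, restrain it or answer to it. They are *Nfe2l2* (NRF2), *Nfe2l1* (NRF1), *Keap1*, *Bach1*, the small MAF genes *Mafg*, *Mafk* and *Maff*, *Sqstm1* (p62) and *Osgin1*. They were chosen by name, as a list of NRF2 regulators, partners and BACH1, and were found by symbol among the 55487 gene identifiers of each count table. All 9 passed the filter on low counts, which left 13535 genes tested. The most counted was *Sqstm1*, with 49624 to 230972 reads per library, and the least counted was *Bach1*, with at most 767.

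The libraries came from primary hepatocytes of mouse liver in culture. Control cells received neither a pretreatment nor FAC, and FAC cells received FAC alone, an abbreviation the labels leave unexplained. Before FAC, on culture day 2, Lip-1+FAC cells were given liproxstatin-1, which scavenges lipid reactive oxygen species (ROS), and MT+FAC cells Mito-TEMPO, which scavenges mitochondrial ROS. Each of the 4 groups holds 3 libraries. Neither scavenger was given without FAC, so an effect of the scavenger on its own cannot be told apart from an effect on the response to FAC. Strain, age, sex, doses and the length of exposure are not given in the labels used here. Nothing in the labels says that the 3 libraries of a group came from separate animals or cultures, so the p-values measure the spread between these libraries.

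NRF2 is a basic leucine zipper factor of the CNC family that turns on genes for glutathione synthesis, quinone reduction, NADPH supply and iron storage. In unstressed cells KEAP1 holds NRF2 on a CUL3 ubiquitin ligase, so that NRF2 is mostly controlled as a protein and its mRNA need not follow its activity. NRF2 binds antioxidant response elements only as a pair with a small MAF protein, and BACH1, a heme-binding repressor, pairs with the same small MAFs at overlapping elements. Hepatocytes, which detoxify drugs and store iron, are a tissue in which this circuit is strongly used.

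The libraries held 22991598 to 31683376 reads assigned to genes, except FAC replicate 2 with 52529278. All 9 hepatocyte markers checked were present at a mean of 1 CPM or more (counts scaled to library size) in every group. Their sum was 50894 to 53748 CPM in the FAC libraries and 55350.1 to 61383 in all others. *Trf* carried that order, with means of 38124 CPM in Control and 33565 in FAC, then 42087 with liproxstatin-1 and 44615 with Mito-TEMPO, whereas 5 of the 9 (*Alb*, *Apoa1*, *Ttr*, *Serpina1a* and *Asgr1*) had their highest mean in FAC. The part of these markers in the results was not tested. Of the markers of other liver cells, 3 to 5 of 8 for macrophages, 5 or 6 of 7 for endothelium, 2 or 3 of 8 for stellate cells and 3 or 4 of 6 for bile duct cells reached a mean of 1 CPM, depending on the group. Summed macrophage markers were 224 to 256 CPM in Control and 290 to 322 in FAC, then 117 to 147.3 with liproxstatin-1 and 143.2 to 175 with Mito-TEMPO. Most of that was *Cd68*. Among the other listed macrophage genes, *Adgre1*, *Clec4f* and *Ptprc* did not exceed 1.81, 1.495 and 0.400 CPM. *Marco* and *Csf1r* stood higher. *Marco* averaged 3.29 CPM in Control and 3.904 in FAC, then 4.26 with liproxstatin-1 and 4.44 with Mito-TEMPO, unlike the order of the sum. *Csf1r* averaged 2.73, 3.61, 2.81 and 2.68 CPM in the same order of groups. In bulk RNA of this kind, fewer cells of a type and less RNA per cell cannot be told apart.

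The sequences around the start sites were searched for the cores of the elements that NRF2, BACH1 and the small MAFs are known to bind. RefSeq promoter windows on the build GRCm38.p6, from 250 bases before to 50 after each start, were found for all 9 genes (15 windows). Both strands were searched for the antioxidant response element core TGACNNNGC and for the core TGCTGAC of the MAF recognition element. The core TGACNNNGC was present in 4 of the 9 genes, the 3 small MAF genes and *Nfe2l2*, and in 12.4% of all 32851 windows or 14% of the genes they belong to. TGCTGAC was present in *Nfe2l1* and *Osgin1*, 2 of the 9 genes, against 5.28% of all genes with a window. The stretches that hold a match are shown 5′ to 3′ on the gene's own strand, with the match in capitals. Matches for *Mafg* and *Mafk* are on the other strand, so the capitals read as the reverse complement.
Nfe2l2, chr2:75704865-75704913, minus strand, 240 bases before the start: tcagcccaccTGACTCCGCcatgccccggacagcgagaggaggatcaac
Mafg, chr11:120633731-120633797, minus strand, 222 bases before: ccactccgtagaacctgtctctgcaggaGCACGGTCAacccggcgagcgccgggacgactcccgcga
Mafk, chr5:139791513-139791541, plus strand, 13 bases before: gatcccggaaGCGGTGTCAgtactgggga
Maff, chr15:79346479-79346547, plus strand, 112 bases before: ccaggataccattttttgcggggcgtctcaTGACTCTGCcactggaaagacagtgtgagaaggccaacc
Nfe2l1, chr11:96824132-96824198, minus strand, 41 bases before: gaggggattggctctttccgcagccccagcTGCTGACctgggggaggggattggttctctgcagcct
Osgin1, chr8:119437017-119437083, plus strand, 100 bases before: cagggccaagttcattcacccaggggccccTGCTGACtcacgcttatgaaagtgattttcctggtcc
In the GENCODE M21 annotation the *Nfe2l2* and *Mafg* stretches overlap exons of noncoding transcripts on the opposite strand. The *Nfe2l1* and *Osgin1* matches lie before internal starts, within introns of the longer gene models, and the *Mafk* match falls at the edge of an annotated first exon. No match of these cores was found in the windows of *Keap1*, *Bach1* or *Sqstm1*. A match is a description of the letters only, and no binding was measured here.

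Per kilobase of exon, the 9 messages spanned a wide range in Control cells. *Sqstm1* was the most abundant at 670.3 ± 38.9 RPKM (counts scaled to library size and exon length, SD, n = 3), followed by *Osgin1* at 162 ± 26.3, *Nfe2l2* at 55.2 ± 4.21 and *Nfe2l1* at 32.9 ± 2.22. *Mafk* stood at 24.1 ± 1.44 RPKM, *Keap1* at 13.8 ± 0.959, *Mafg* at 10.9 ± 1.23 and *Maff* at 9.16 ± 1.67, the last pair within their spread of each other. *Bach1* was the lowest at 1.19 ± 0.257 RPKM. With FAC alone *Mafk*, at 46.0 ± 7.09 RPKM, reached the level of *Nfe2l2* at 45.2 ± 2.48, the ranges of the pair overlapping, and *Maff*, at 28.4 ± 1.32, stood above *Mafg* at 19.5 ± 1.54 and *Keap1* at 13.3 ± 2.24. The place of *Keap1* in this order depends on the column counted: with the stranded columns summed it stood at 21.3 ± 0.755 RPKM in Control, overlapping *Mafk* at 22.8 ± 1.30, and at 20.4 ± 2.31 in FAC, overlapping *Mafg* at 17.7 ± 1.37.

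FAC alone changed 8 of the 9 messages. By edgeR's quasi-likelihood test with Benjamini-Hochberg adjustment over all genes tested (a gene is called at an adjusted p under 0.05), 7 were higher than in Control and *Nfe2l2* was lower. Across all genes tested, 36.6% were called in this comparison, 17.5% higher and 19.1% lower. The FAC and Control libraries did not overlap for 8 of the 9 genes, against 46.2% of all genes. The 9 genes had a median log2 fold change of 0.90, and all genes tested one of -0.01. *Maff* moved most and *Keap1* was not called.

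**Figure D1:**
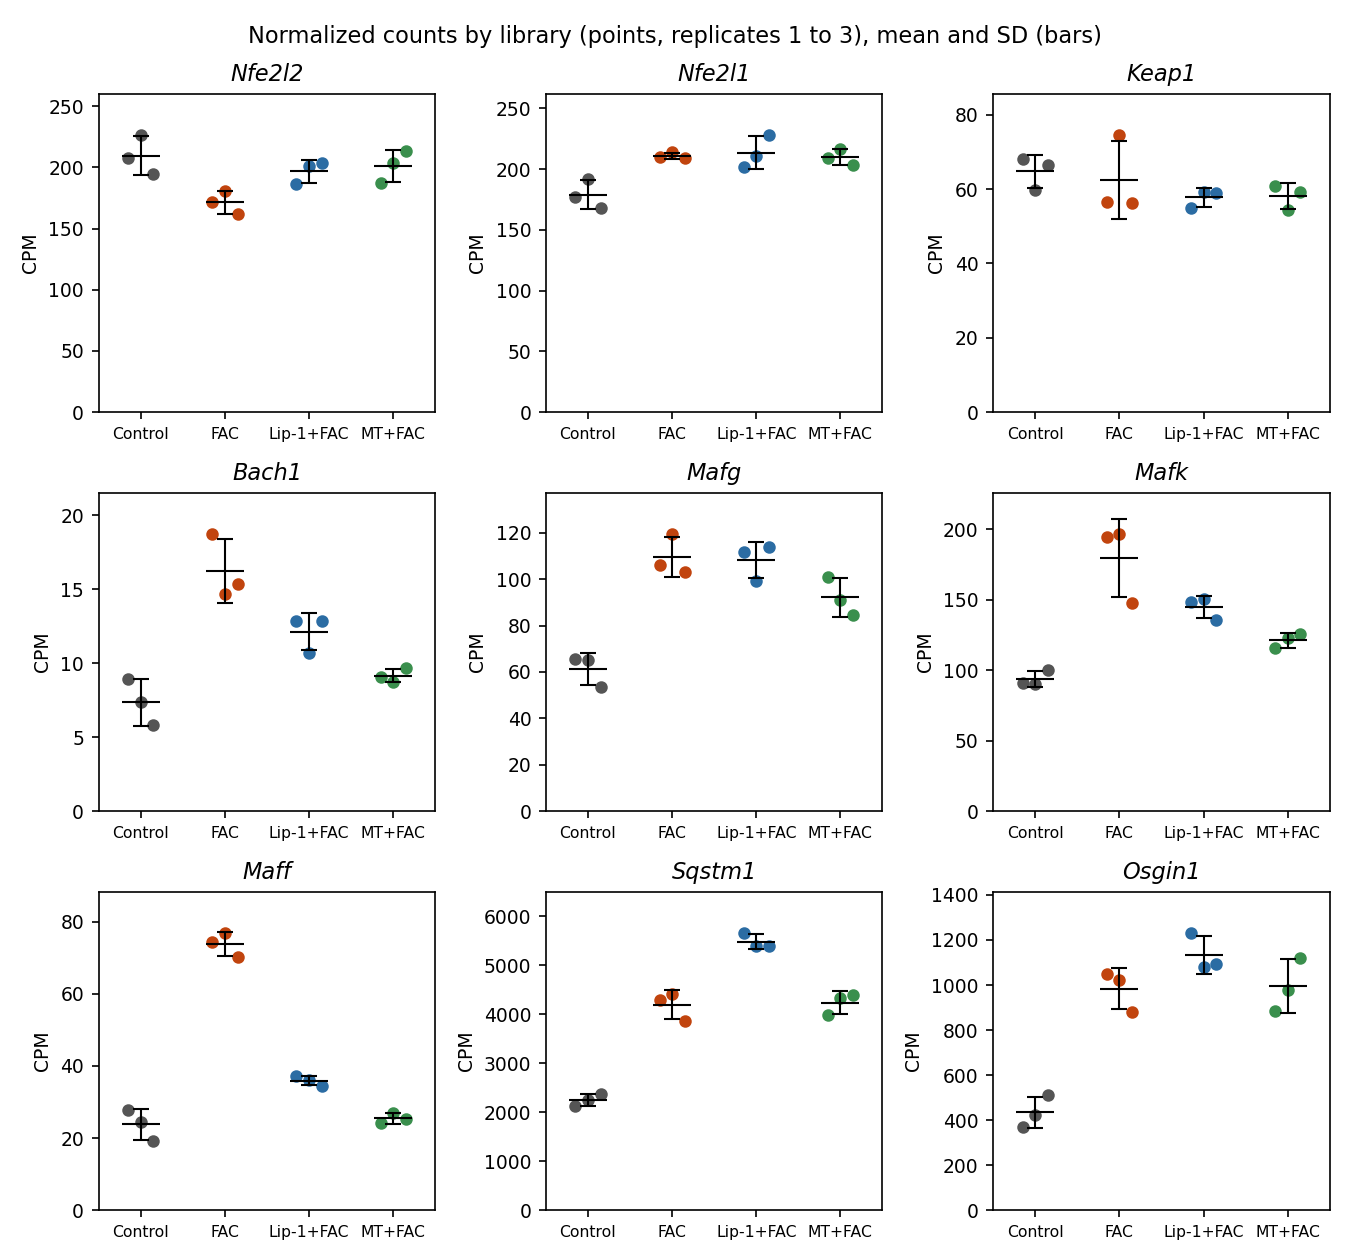
CPM by library for the 9 genes (points, 3 libraries per group, with mean and SD), each panel on its own linear axis from 0. *Bach1*, *Mafk* and *Maff* are highest with FAC alone, *Sqstm1* is highest in Lip-1+FAC, and *Keap1* overlaps between FAC and every other group.

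Beginning with the factors themselves, *Nfe2l2* (chr2:75675513-75704641, minus strand) had 208, 226 and 195 CPM in the 3 Control libraries and 172, 181 and 162 in FAC. The Lip-1+FAC libraries had 186, 201 and 203 CPM and the MT+FAC libraries 187, 204 and 213. Every FAC library was below every library of the other groups, and the pretreated groups overlapped Control. The message fell by 0.29 on the log2 scale with FAC (SE 0.0675, edgeR adjusted p = 0.00252), that is to 0.818 of the Control level. It was higher than FAC alone by 0.20 in Lip-1+FAC (adjusted p = 0.0261) and by 0.23 in MT+FAC (adjusted p = 0.0110). Against Control the differences were -0.09 in Lip-1+FAC and -0.06 with Mito-TEMPO, neither called (95% intervals -0.22 to 0.04 and -0.19 to 0.07). All 3 *Nfe2l2* calls were lost with offsets for GC content and length, which were applied together: the log2 values were -0.16, 0.06 and 0.11 (adjusted p = 0.0668, 0.494 and 0.205). The call of Lip-1+FAC over FAC was also lost without FAC replicate 1 (0.21) or 3 (0.16) or Lip-1+FAC replicate 2 (0.19) or 3 (0.18), and that of MT+FAC over FAC without MT+FAC replicate 3 (0.19).

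*Nfe2l1* (chr11:96817414-96829968, minus strand) encodes NRF1, an endoplasmic reticulum bound relative of NRF2 that drives proteasome genes when proteasome activity falls. Control libraries had 177, 192 and 168 CPM, FAC 209.8, 214 and 209, Lip-1+FAC 202, 211 and 228, and MT+FAC 209, 217 and 204. All 9 FAC-treated libraries were above all 3 Control libraries, and the FAC-treated groups overlapped one another. The rise with FAC was 0.24 on the log2 scale (SE 0.0602, edgeR adjusted p = 0.00471), with 0.25 in Lip-1+FAC (adjusted p = 0.00369) and 0.23 in MT+FAC (adjusted p = 0.0120) against Control. The last was not called without Control replicate 3 (0.19). Neither pretreated group differed from FAC alone beyond the error, at 0.02 (95% interval -0.10 to 0.14) for Lip-1+FAC and -0.01 (-0.13 to 0.11) for MT+FAC. *Nfe2l1* and *Nfe2l2* therefore had opposite signs with FAC.

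The KEAP1 message was the one of the 9 that no comparison called. *Keap1* (chr9:21229730-21239361, minus strand), the substrate adaptor that senses electrophiles, had 68.1, 59.6 and 66.4 CPM in Control and 56.4, 74.5 and 56.3 in FAC. Lip-1+FAC had 54.9, 59.2 and 59.0 CPM, and MT+FAC 60.8, 54.3 and 59.2. FAC replicate 2 was the highest of all 12 libraries and the other FAC libraries were below every Control library. The log2 difference of FAC from Control was -0.05 (95% interval -0.23 to 0.14, edgeR adjusted p = 0.738). Part of the locus is shared with an antisense transcript, *Gm16754*, which overlaps 10.9% of its exons, and the unstranded column leaves out reads that fall in both. Summing the stranded columns gave 169% of the unstranded *Keap1* reads, at 99.7 ± 3.54 CPM in Control and 95.8 ± 10.8 in FAC, then 90.1 ± 4.31 with liproxstatin-1 and 90.8 ± 4.42 with Mito-TEMPO. With those reads, too, no comparison called *Keap1*.

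BACH1, the repressor that competes with NRF2 for small MAFs and is inactivated by heme, had the least abundant message and one of the larger changes. *Bach1* (chr16:87698945-87733346, plus strand) had 8.97, 7.35 and 5.80 CPM in Control and 18.7, 14.7 and 15.3 in FAC, then 12.9, 10.7 and 12.9 with liproxstatin-1 and 9.10, 8.75 and 9.67 with Mito-TEMPO. The FAC libraries were above all others, the Lip-1+FAC libraries lay between FAC and Control without touching either, and the MT+FAC libraries reached into the Control range. With FAC alone the message was 2.20-fold higher than in Control (log2 1.14, SE 0.148, edgeR adjusted p = 1.09e-05). It was lower than with FAC alone in Lip-1+FAC (log2 -0.42, SE 0.142, adjusted p = 0.0257) and in MT+FAC (log2 -0.82, SE 0.144, adjusted p = 0.000210). Against Control it was still 1.65-fold higher in Lip-1+FAC (adjusted p = 0.00135), whereas MT+FAC gave log2 0.32 (95% interval 0.02 to 0.61), not called at adjusted p = 0.155. The unadjusted p of that MT+FAC difference by edgeR was 0.0519. When FAC replicate 1 or Lip-1+FAC replicate 2 was left out, the difference between Lip-1+FAC and FAC was not called (-0.30 and -0.33).

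Set against its rival, the *Bach1* message was 1.83 to 2.65% of the *Nfe2l2* message per kilobase in Control and 5.0 to 6.69% in FAC. The ratio was 3.27 to 4.25% in Lip-1+FAC and 2.64 to 2.99% with Mito-TEMPO. Only Control and MT+FAC overlapped, by 1 library. *Bach1* thus stayed far below *Nfe2l2* per kilobase in every library, and the ratio carries no test of its own.

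The small MAFs are short partners without an activation domain, which give activation with NRF2 and repression with BACH1 or as pairs of their own. All 3 rose with FAC. Against FAC alone, *Maff* and *Mafk* were called lower in both pretreated groups and *Mafg* in MT+FAC, where its call depended on single libraries. The small MAFs were not tested against each other.

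*Maff* (chr15:79346621-79359076, plus strand) had 27.6, 24.6 and 19.1 CPM in Control and 74.4, 76.8 and 70.0 in FAC. Lip-1+FAC had 37.1, 36.1 and 34.5 CPM and MT+FAC 24.2, 26.995 and 25.1. FAC stood far above the rest, Lip-1+FAC was above Control and MT+FAC without overlap, and MT+FAC lay within the Control range. The rise with FAC was 3.11-fold (log2 1.64, SE 0.102, edgeR adjusted p = 3.51e-09). Against FAC alone the log2 change was -1.04 in Lip-1+FAC (SE 0.0992, adjusted p = 2.96e-07) and -1.54 in MT+FAC (SE 0.101, adjusted p = 9.40e-09). Relative to Control, Lip-1+FAC was 1.51-fold higher (adjusted p = 0.000254) and MT+FAC differed by 0.10 (95% interval -0.10 to 0.30, adjusted p = 0.544). The bile duct markers *Sox9*, *Krt19*, *Krt7* and *Epcam* were also highest in FAC: *Sox9* averaged 17.4 CPM in Control and 53.4 in FAC, then 12.01 with liproxstatin-1 and 15.1 with Mito-TEMPO, and *Krt19* 3.96, 9.96, 1.58 and 2.70. *Krt7* averaged 0.419, 0.975, 0.150 and 0.242 CPM in that order of groups and *Epcam* 0.405, 1.26, 0.227 and 0.214, while *Cftr* had a median of 0. Their summed list, which also holds *Spp1*, did not follow that order, at 58.6 to 69.0 CPM in Control and 98.4 to 123 in FAC, then 110 to 125 with liproxstatin-1 and 104 to 145 with Mito-TEMPO. Summed stellate cell markers were 10.9 to 15.5 CPM in Control and 19.9 to 20.7 in FAC, then 8.91 to 10.7 with liproxstatin-1 and 10.6 to 11.3 with Mito-TEMPO. *Reln* alone made the FAC sum the highest, with 7.46 CPM in Control and 16.1 in FAC, while *Dcn* (3.55 and 2.34), *Col1a1* (0.674 and 0.465), *Pdgfrb* (0.513 and 0.288) and *Lrat* (0.275 and 0.0192) had lower means in FAC. Summed endothelial markers were 36.0 to 38.5 CPM in Control and FAC and 26.7 to 31.3 in the pretreated groups. *Stab2* carried that difference, with means of 28.2 CPM in Control and 26.5 in FAC, then 17.9 with liproxstatin-1 and 19.2 with Mito-TEMPO. *Pecam1* (2.77, 2.63, 3.19 and 3.05) and *Kdr* (0.967, 1.25, 1.91 and 1.50) had higher means in the pretreated groups, and the other listed genes averaged at most 2.55. The part of all these markers, and that of *Cd68*, in the *Maff*, *Mafk* and *Bach1* results was not tested.

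*Mafk* (chr5:139791513-139802653, plus strand) had 90.9, 90.3 and 100.3 CPM in Control and 194, 197 and 147.6 in FAC, then 148.4, 150.4 and 136 with liproxstatin-1 and 115, 123 and 126 with Mito-TEMPO. All FAC-treated libraries were above Control, and FAC replicate 3 fell among the Lip-1+FAC libraries. *Mafk* rose 1.91-fold with FAC (log2 0.94, SE 0.0902, edgeR adjusted p = 7.57e-07). It was lower than FAC alone in Lip-1+FAC (log2 -0.31, SE 0.0889, adjusted p = 0.0108) and in MT+FAC (log2 -0.57, adjusted p = 0.000106). The Lip-1+FAC call was lost without FAC replicate 1 (-0.25), FAC replicate 2 (-0.24) or Lip-1+FAC replicate 3 (-0.26), and with offsets for GC content and length (-0.21). Over Control it was still higher, by log2 0.63 in Lip-1+FAC (adjusted p = 6.51e-05) and 0.37 in MT+FAC (adjusted p = 0.00884).

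*Mafg* (chr11:120625117-120633600, minus strand) had 65.8, 65.0 and 53.5 CPM in Control and 106, 119 and 103 in FAC. Lip-1+FAC libraries had 112, 99.3 and 114 CPM and MT+FAC libraries 101, 91.0 and 84.5. All FAC-treated libraries were above Control, Lip-1+FAC overlapped FAC, and MT+FAC lay just under FAC. The message rose 1.78-fold with FAC (log2 0.84, SE 0.0890, edgeR adjusted p = 1.56e-06), and over Control it was higher by 0.82 in Lip-1+FAC (adjusted p = 3.43e-06) and 0.58 in MT+FAC (adjusted p = 0.000236). Against FAC alone the log2 difference was -0.02 in Lip-1+FAC (95% interval -0.19 to 0.15) and -0.25 in MT+FAC (SE 0.0876, adjusted p = 0.0299). The last call was lost without FAC replicate 2 (-0.18), MT+FAC replicate 2 (-0.25) or MT+FAC replicate 3 (-0.19).

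Added up per kilobase, the 3 small MAF messages came to 44.2 ± 1.54 RPKM in Control and 94.0 ± 9.49 in FAC, then 70.3 ± 1.92 with liproxstatin-1 and 57.3 ± 0.651 with Mito-TEMPO (SD, n = 3). No group overlapped another in that sum. *Maff* made up 17.3 to 23.3% of it in Control and 29.2 to 32.4% in FAC, then 19.5 to 19.9% in Lip-1+FAC and 16.4 to 17.9% with Mito-TEMPO. *Mafk* was the most abundant of the 3 in every library, at 45.5 to 60.3% of the sum. Small MAF messages together were 0.802 ± 0.0529 times the *Nfe2l2* message in Control, 2.08 ± 0.107 times in FAC, 1.36 ± 0.102 times in Lip-1+FAC and 1.08 ± 0.0697 times in MT+FAC. These sums and ratios are descriptions of the libraries, with no test.

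**Figure D2:**
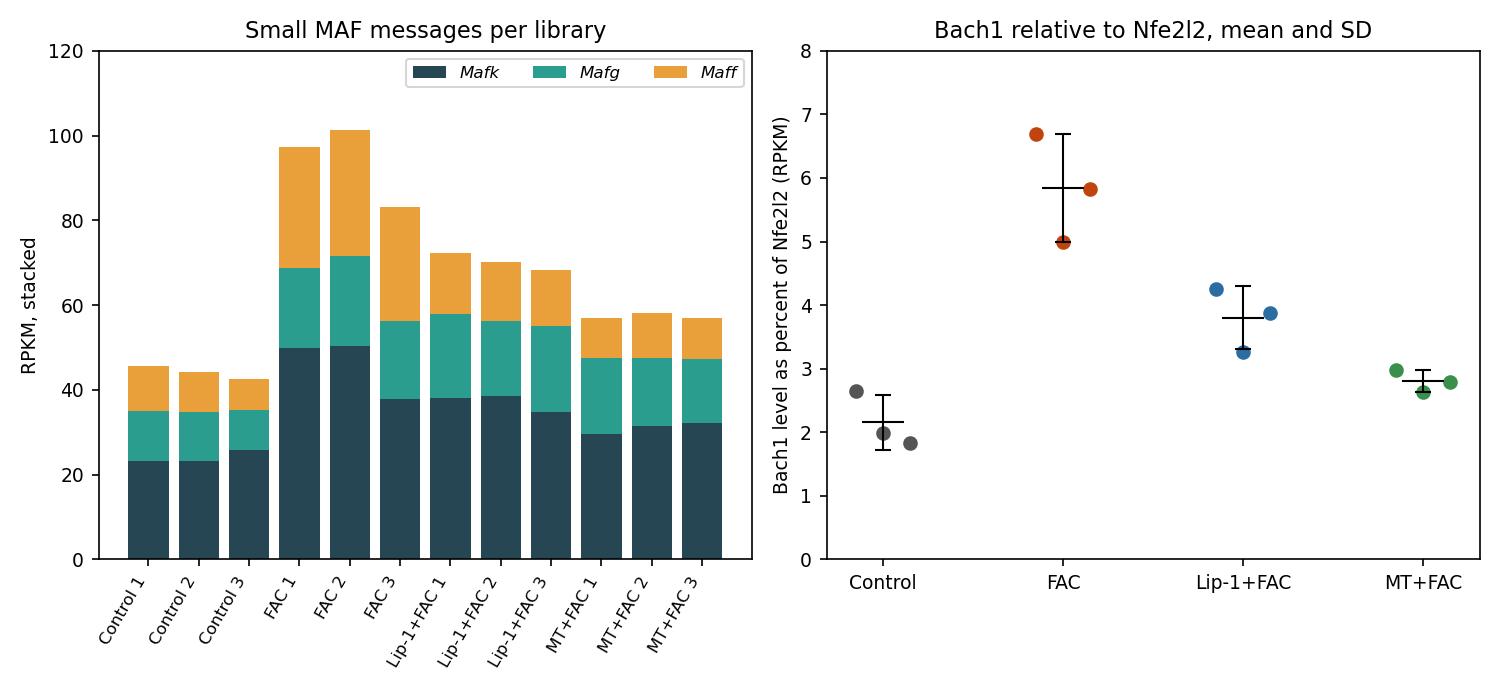
Left, stacked RPKM of *Mafk*, *Mafg* and *Maff* in each library. Right, the *Bach1* level as a percent of the *Nfe2l2* level (both RPKM) by library, with mean and SD. The stacked sum is highest in the FAC libraries, at 83.2 to 101 RPKM, and the ratio is highest there too, at 5.0 to 6.69%.

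p62, the autophagy receptor that traps KEAP1 and is itself an NRF2 target, had the most abundant message of the 9. *Sqstm1* (chr11:50199366-50210827, minus strand) had 2119.8, 2248 and 2381 CPM in Control and 4301, 4424 and 3856 in FAC. Lip-1+FAC had 5658, 5399 and 5400.3 CPM, and MT+FAC 3979, 4339.5 and 4400.0. Lip-1+FAC libraries were above all others, and FAC and MT+FAC overlapped well above Control. *Sqstm1* rose 1.86-fold with FAC (log2 0.90, SE 0.0642, edgeR adjusted p = 1.32e-08) and was higher again in Lip-1+FAC than in FAC by 0.39 (SE 0.0637, adjusted p = 0.000105). MT+FAC differed from FAC by 0.02 (95% interval -0.11 to 0.14). Against Control the log2 differences were 1.29 in Lip-1+FAC (adjusted p = 1.59e-10) and 0.91 in MT+FAC (adjusted p = 3.18e-08). *Mrnip*, which overlaps 17.3% of the exons on the other strand, was counted at 0.329 to 0.829 CPM.

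OSGIN1 is an NRF2-induced protein of oxidative stress linked to growth arrest and cell death. *Osgin1* (chr8:119434124-119446256, plus strand) had 371, 421 and 510.1 CPM in Control and 1047, 1023 and 881 in FAC, then 1231, 1078 and 1095 with liproxstatin-1 and 883, 977 and 1121 with Mito-TEMPO. All FAC-treated libraries were above Control, Lip-1+FAC was above FAC without overlap, and MT+FAC overlapped both. The rise with FAC was 2.27-fold (log2 1.18, SE 0.119, edgeR adjusted p = 1.01e-05), and the log2 difference from Control was 1.39 in Lip-1+FAC (adjusted p = 4.31e-06) and 1.19 in MT+FAC (adjusted p = 3.59e-05). Lip-1+FAC differed from FAC by 0.21 (95% interval -0.02 to 0.44, adjusted p = 0.186), which was called with offsets for GC content and length (0.44). MT+FAC differed from FAC by 0.01 (-0.22 to 0.24).

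Counted over the 9 genes, pretreatment with liproxstatin-1 gave 5 calls against FAC alone, *Nfe2l2* and *Sqstm1* higher and *Bach1*, *Mafk* and *Maff* lower. Of all genes tested, 39.9% were called in that comparison, 20.7% higher and 19.2% lower. Libraries did not overlap for 5 of the 9, against 50.8% of all genes. Mito-TEMPO also gave 5 calls, *Nfe2l2* higher and *Bach1*, *Mafg*, *Mafk* and *Maff* lower, where 40.9% of all genes were called, 21.2% higher and 19.7% lower. Here 5 of the 9 did not overlap, against 52.9% of all genes. The calls fell from 5 to 2 without FAC replicate 1 and to 3 without Lip-1+FAC replicate 2 or 3 in the first comparison, and to 3 without MT+FAC replicate 3 in the second. Both contrasts share the 3 FAC libraries, so they are not independent of each other or of FAC against Control.

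**Figure D3:**
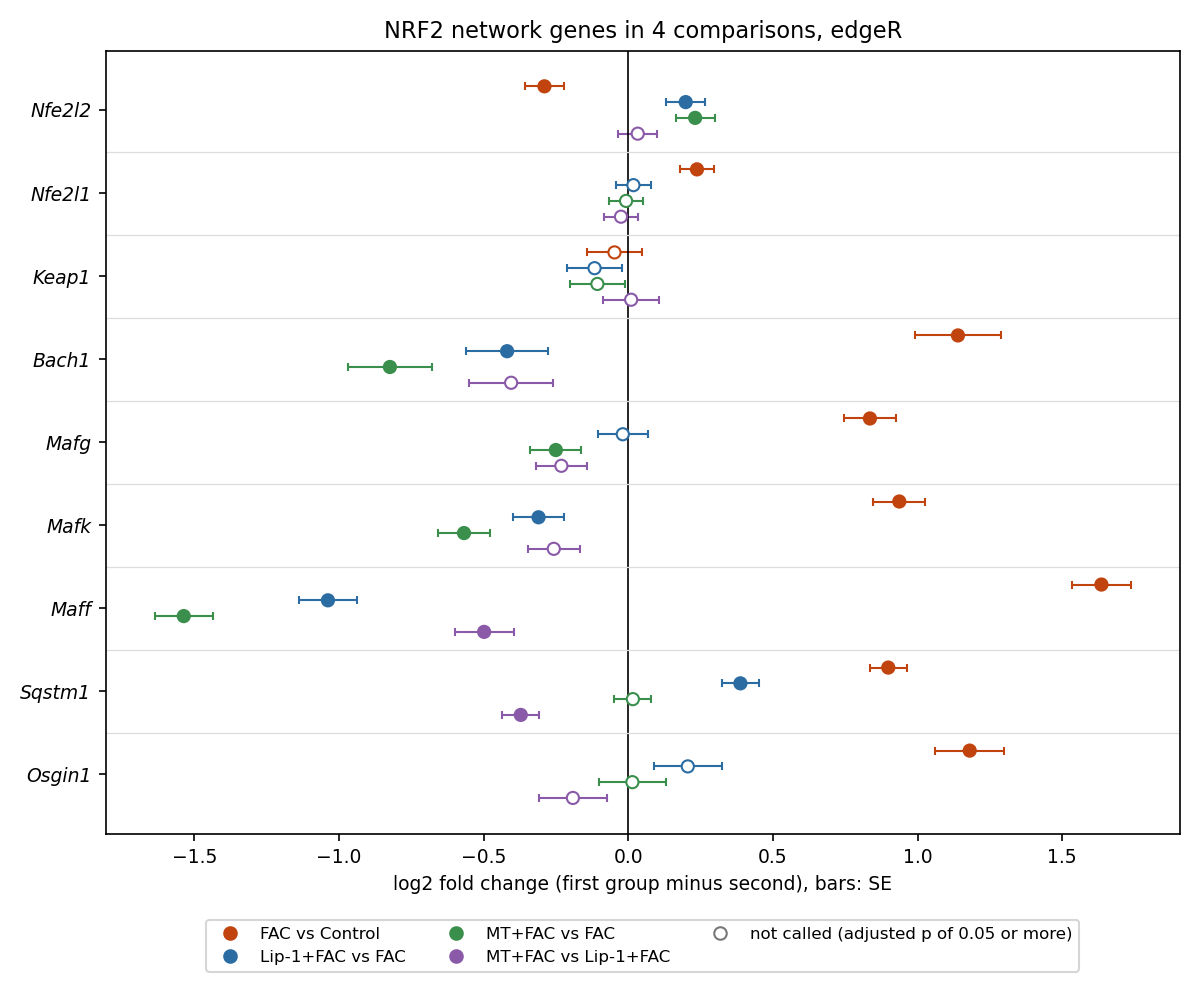
Log2 fold changes of the 9 genes in 4 comparisons, with SE bars; filled points are called by edgeR at an adjusted p under 0.05, open points are not. *Maff* reaches 1.64 with FAC and -1.54 in MT+FAC against FAC, whereas *Sqstm1* is at 0.39 in Lip-1+FAC against FAC.

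Between the pretreated groups, *Maff* and *Sqstm1* were called, and both were lower in MT+FAC than in Lip-1+FAC. Among all genes tested only 1.34% were called here, 0.465% higher and 0.879% lower. The difference was -0.50 on the log2 scale for *Maff* (SE 0.102, edgeR adjusted p = 0.0191) and -0.37 for *Sqstm1* (SE 0.0637, adjusted p = 0.00482), each lower in all 3 MT+FAC libraries than in any Lip-1+FAC library. *Bach1* (-0.41, 95% interval -0.69 to -0.12, adjusted p = 0.207) and *Mafk* (-0.26, -0.43 to -0.08, adjusted p = 0.192) did not overlap either but were not called. In all, 4 of the 9 did not overlap, against 19.8% of all genes, and 5 had an unadjusted p under 0.05. The *Maff* call was lost without Lip-1+FAC replicate 1 (-0.48) or 2 (-0.50) or MT+FAC replicate 1 (-0.46) or 3 (-0.49), while that of *Sqstm1* held in each alternative. *Mafk* was called lower without a filter on low counts (-0.25), with only the compared libraries (-0.26) and without FAC replicate 3 (-0.26), and *Mafg*, at -0.23 and not called otherwise, with offsets for GC content and length (-0.32).

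Against Control, 7 of the 9 were called higher in Lip-1+FAC, where 30.2% of all genes were called, 15.4% higher and 14.8% lower. Libraries did not overlap for 8 of the 9, against 43.3% of all genes. Beside the 7 called, that was *Keap1*, below Control in all Lip-1+FAC libraries but not called. Its log2 difference was -0.16 (95% interval -0.35 to 0.02, edgeR adjusted p = 0.210). In MT+FAC 5 were called higher, where 19.8% of all genes were called, 9.71% higher and 10.1% lower, and 5 did not overlap, against 38.2%. By edgeR none of the 9 was called lower than Control in either pretreated group, 0 also at an unadjusted p under 0.05 and 0 by DESeq2.

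Turning to the genes on which the circuit acts, 49 of 50 listed NRF2 targets were tested. With FAC 27 were higher and 6 lower, at a median log2 fold change of 0.42 beside -0.01 for all genes and a called share of 67.3% beside 36.6%. *Hmox1*, which encodes the heme-degrading enzyme heme oxygenase, rose from 298 ± 37.7 to 2560 ± 48.7 CPM (log2 3.10, SE 0.0940, edgeR adjusted p = 7.20e-12). *Slc7a11*, the cystine importer that feeds glutathione synthesis, rose from 13.3 ± 1.37 to 51.9 ± 3.20 CPM (log2 1.96, adjusted p = 9.13e-11). *Adh7*, a retinol-oxidizing alcohol dehydrogenase, fell from 4.98 ± 0.575 to 1.72 ± 0.692 CPM (log2 -1.55, adjusted p = 0.000329). *Gstm3*, a glutathione transferase, had log2 -0.64 (adjusted p = 0.0283), a call lost in 8 alternatives.

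With liproxstatin-1 29 of the 49 targets were higher than with FAC alone and 4 were lower (median 0.38), and with Mito-TEMPO 26 were higher and 6 lower (median 0.24). The shares called were 67.3% and 65.3%, beside 39.9% and 40.9% of all genes. *Gstm3* rose to 824 ± 111 CPM in Lip-1+FAC and 781 ± 153 with Mito-TEMPO from 231 ± 6.61 in FAC (log2 1.83 and 1.76, adjusted p = 6.88e-05 and 0.000102). *Cbr3*, a carbonyl reductase, rose from 3.92 ± 0.776 CPM to 11.9 ± 2.74 and 9.52 ± 1.08 (log2 1.60 and 1.27). *Hmox1* went the other way, with log2 -0.79 in Lip-1+FAC (adjusted p = 2.85e-06) and -1.02 in MT+FAC (adjusted p = 3.24e-07), at 1478 ± 49.5 and 1260.0 ± 156 CPM. *G6pdx*, the entry enzyme of the pentose phosphate pathway, was lower too, at log2 -0.87 and -0.97, though 13.6% of its exons overlap another gene and summing the stranded columns gave -0.54 in Lip-1+FAC.

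Between the pretreated groups 13 of the 49 targets were lower in MT+FAC, a share of 26.5% beside 0.879% of all genes, with a median of -0.23 beside 0.00, and the number ranged from 6 to 20 over the alternatives. None was higher by edgeR, 0 also at an unadjusted p under 0.05 and 0 by DESeq2. *Slc7a11* stood at 72.6 ± 7.10 CPM in MT+FAC and 110.0 ± 4.33 in Lip-1+FAC (log2 -0.60, SE 0.0803, edgeR adjusted p = 0.000579). *Abcc2*, the canalicular exporter of conjugates, stood at 269 ± 17.5 and 408 ± 28.5 CPM (log2 -0.60, adjusted p = 0.000313). The lower ends of that count came without Lip-1+FAC replicate 1 (6), Lip-1+FAC replicate 2 (7), MT+FAC replicates 1 or 2 (8 each) and MT+FAC replicate 3 (6).

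Genes known to be repressed by BACH1, for heme, iron and redox handling, were 13 in number. All but *Slc40a1*, *Slc48a1* and *Fech* were also on the NRF2 list, so these counts largely repeat the same genes. With FAC 10 were higher (median 0.62) and none lower by edgeR, with 1 lower at an unadjusted p under 0.05 and 0 by DESeq2. Under upper-quartile scaling, a filter at a mean CPM of 5 and offsets for GC content and length, edgeR called 1 lower. In Lip-1+FAC against FAC 9 were higher and 2 lower (median 0.24), and in MT+FAC against FAC 5 were higher and 2 lower (median 0.08). The shares called in these 3 comparisons were 76.9%, 84.6% and 53.8%, beside 36.6%, 39.9% and 40.9% of all genes, and the last count ranged from 5 to 8 of the 13 over the alternatives. Both lower genes were *Hmox1* and *Fth1*, the ferritin heavy chain. *Fth1* was at 5346 ± 207 CPM in FAC, 4488 ± 402 in Lip-1+FAC (log2 -0.25, edgeR adjusted p = 0.00833) and 3812 ± 105 in MT+FAC (log2 -0.49, adjusted p = 3.28e-05). *Nqo1*, a quinone reductase, was at 12.2 ± 0.402 CPM in FAC, 32.8 ± 0.992 in Lip-1+FAC (log2 1.42, adjusted p = 4.75e-08) and 26.4 ± 0.625 in MT+FAC (log2 1.11, adjusted p = 9.78e-07). Between the pretreated groups 4 were lower in MT+FAC, 30.8% beside 0.879% of all genes. All 4 were also among the NRF2 targets called lower there. That count ranged from 2 to 6, with 2 on leaving out Lip-1+FAC replicate 1 or 2, or MT+FAC replicate 1 or 3.

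**Figure D4:**
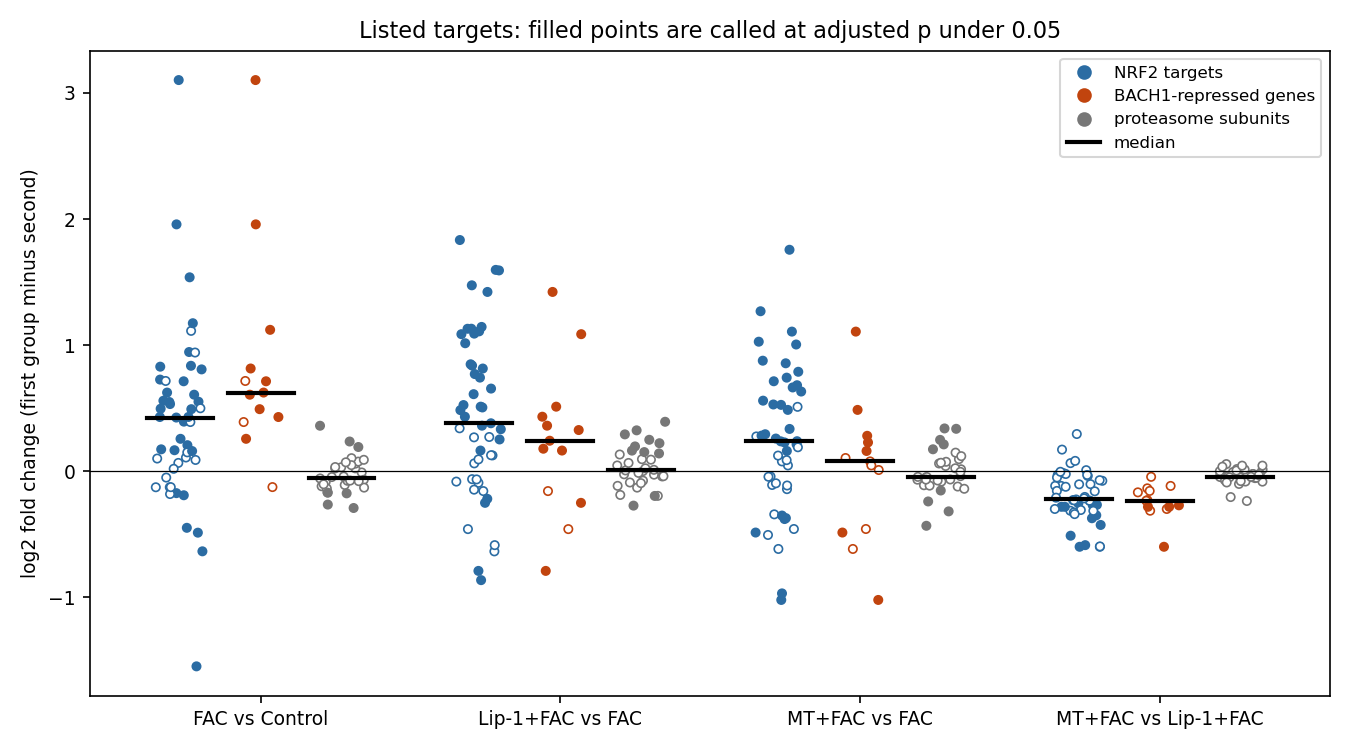
Log2 fold changes of the listed NRF2 targets, BACH1-repressed genes and proteasome subunits in 4 comparisons; each point is a gene, filled where called by edgeR, and the bar is the list's median. NRF2 targets have medians of 0.42, 0.38, 0.24 and -0.23 from left to right, and proteasome subunits have medians between -0.05 and 0.01.

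Proteasome subunits are the classic NRF1 targets. Of 32 tested, 3 were higher and 5 lower with FAC (median -0.05), 9 and 2 in Lip-1+FAC against FAC (0.01), 5 and 4 in MT+FAC against FAC (-0.04). The shares called were 25%, 34.4% and 28.1%, beside 36.6%, 39.9% and 40.9% of all genes. The count in Lip-1+FAC against FAC was 6 without Lip-1+FAC replicate 3 and 7 without FAC replicate 2. The split with FAC was not stable: it was 8 higher and 3 lower with offsets for GC content and length, and 1 higher and 9 lower without FAC replicate 3. The 8 calls became 4 without Control replicate 2, and 5 without Control replicate 1, FAC replicate 1 or FAC replicate 2. *Psmd11* rose from 305 ± 17.7 to 391 ± 8.70 CPM with FAC (log2 0.36, edgeR adjusted p = 4.13e-05). *Psma1* fell with FAC (log2 -0.29) and was higher in Lip-1+FAC (0.39) and MT+FAC (0.34) than in FAC. Of 13 genes that process or degrade NRF1, 3 were higher and 2 lower with FAC, and 5 and 1 in Lip-1+FAC against FAC. These shares of 38.5% and 46.2% stand beside 36.6% and 39.9% of all genes, and over the alternatives the counts ranged from 3 (without Control replicate 1 or 2) to 6 and from 2 (with offsets for GC content and length) to 7. *Hcfc1*, a cofactor that stabilizes NRF1, rose by 0.51 with FAC (adjusted p = 0.000876). *Ngly1*, the glycanase that NRF1 needs, was higher than FAC by 0.28 in Lip-1+FAC and 0.26 with Mito-TEMPO, the first not called with offsets for GC content and length (0.14).

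A list of 20 genes that act on NRF2 protein held ubiquitin ligase parts, kinases and KEAP1-binding proteins. It also held the coactivators *Ep300* and *Crebbp*, both called higher with FAC, so it is not a list of degradation genes only. With FAC 4 were higher and 4 lower, a share of 40% beside 36.6% of all genes. *Ep300*, a coactivator that acetylates NRF2, rose by 0.62 (edgeR adjusted p = 0.00331), and *Trim21*, a ubiquitin ligase that binds p62, had log2 -0.59 (adjusted p = 0.00119). In Lip-1+FAC against FAC 2 were higher and 3 lower, and in MT+FAC against FAC 5 and 4; *Gsk3b*, a kinase that marks NRF2 for a KEAP1-independent ligase, was lower in both (-0.30 and -0.28). These shares of 25% and 45% stand beside 39.9% and 40.9% of all genes, and the counts ranged from 3 (on leaving out Lip-1+FAC replicate 2 or FAC replicate 1) to 6 and from 6 to 11 over the alternatives. For 7 genes that act on BACH1 protein, *Fbxo22*, the ligase subunit that degrades heme-bound BACH1, had log2 -0.22 with FAC (adjusted p = 0.00593) and was higher than FAC by 0.27 in Lip-1+FAC and 0.22 with Mito-TEMPO. The fall was not called with offsets for GC content and length (-0.10), and 15.4% of its exons overlap another gene. *Xpo1*, which exports BACH1 from the nucleus, rose by 0.28 with FAC (adjusted p = 0.00662).

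Of 20 genes listed as p62 partners or for selective autophagy, 4 were higher and 3 lower with FAC. The counts were 8 and 5 in Lip-1+FAC against FAC, and 7 and 5 in MT+FAC against FAC. The shares called were 35%, 65% and 60%, beside 36.6%, 39.9% and 40.9% of all genes. Over the alternatives the counts ranged from 5 to 10, 9 to 14 and 7 to 15, the 7 without MT+FAC replicate 1 with 8 without FAC replicate 2. *Map1lc3b*, the LC3 protein that p62 binds, fell from 514 ± 24.4 to 406 ± 9.36 CPM with FAC (log2 -0.34, edgeR adjusted p = 0.000229), opposite in sign to *Sqstm1*. It was higher than FAC by 0.50 in Lip-1+FAC and 0.34 with Mito-TEMPO. *Tfe3*, a factor for lysosomal genes, rose by 0.58 with FAC (adjusted p = 1.53e-06), and *Sesn1*, a stress-induced sestrin, fell by 0.60. *Gabarapl1* was the one gene of the list called between the pretreated groups (-0.32, adjusted p = 0.0105), a call lost on leaving out Lip-1+FAC replicate 1 (-0.29) or 2 (-0.31) or MT+FAC replicate 3 (-0.31); 28.3% of its exons overlap another gene.

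Several related CNC, BACH and large MAF genes were near the floor of the assay. *Nfe2*, *Nfe2l3*, *Mafa* and *Nrl* had at most 8, 6, 7 and 0 reads in a library and were not tested. *Bach2* rose from 2.73 ± 0.267 to 4.01 ± 0.467 CPM with FAC (log2 0.55, edgeR adjusted p = 0.0449), a call lost in 12 alternatives, and *Maf* was not called.

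The genes whose log2 CPM most resembled each of the 9 over the 12 libraries were taken from 8991 protein-coding genes with a mean of at least 5 CPM. These correlations follow the same 4 group means and carry no test. For *Sqstm1* they were *Rhpn2* (Pearson r 0.994), *Gclm*, the modifier subunit of glutathione synthesis (0.987), and *Slc7a11* (0.981). For *Osgin1* they were *Gclc*, the catalytic subunit (0.976), the iron exporter gene *Slc40a1* (0.974) and *Slc6a6* (0.972). For *Maff* they were *Kcmf1* (0.986), *Cep170* (0.981) and *Oser1* (0.979), for *Mafk* *Fam210a* (0.982), *Plk3* (0.981) and *Stk40* (0.976), and for *Bach1* *Map3k2* (0.975), *Fgd6* (0.970) and *Dusp11* (0.965). *Mafg* was nearest to *Dlg5* (0.974) and *Nfe2l1* to *Heatr1* (0.969). *Nfe2l2* and *Keap1* had weaker nearest genes, *Tuba1a* (0.922) and *Lrg1* (0.862).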

How the data were processed

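RNA in 12 libraries of primary mouse hepatocytes was measured. Per the labels' protocols, RNA was extracted with a DNase step, cDNA was made with SMART-Seq v4 and libraries with Nextera XT, and paired reads were sequenced on a NovaSeq; no molecular identifiers are mentioned, so intervals cover the spread between libraries and not PCR duplication. Per the submitters' processing notes, STAR and GRCm38 were used; version, annotation and settings are not given in the sources used here. The authors deposited unnormalized counts per gene as whole numbers, in an unstranded column and 2 stranded columns. The unstranded column was used, since the strands split evenly. Lines that name no gene were left out; genes took 75.8% to 81.2% of the listed reads. Of 55487 identifiers, 55227 were matched to GENCODE M21.

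edgeR 4.0.16 (R 4.3.3, limma 3.58.1) tested genes by its quasi-likelihood F test after filterByExpr and TMM scaling, with robust dispersions over all 12 libraries and 4 group means; p-values are two-sided and adjusted by Benjamini-Hochberg over 13535 genes, and 95% intervals are normal intervals from the SE. Such normal intervals are narrower than the F test implies, and the calls rest on the p-values. The common biological coefficient of variation was 9.71%. CPM are counts scaled to TMM library sizes, and RPKM divide by exon length. On counts simulated for FAC against Control, with 200 genes changed among about as many genes as were tested, 46.5% of changes of 0.5 (log2; 13280 genes) and 68.5% of changes of 1 (13279 genes) were recovered, with 7% and 5.52% of calls false. In the data 36.6% of genes were called in that comparison. The simulated share of changed genes was far smaller, so these recoveries do not measure the sensitivity of the reported comparison. DESeq2 1.42.0 was an alternative, as were other scalings, filters, offsets for GC content and length, thinning, a replicate block and leaving out each library. Same-numbered libraries of different groups had residual correlations of -0.52 to 0.36, so numbers were not taken as pairs.

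The 9 genes and the lists of related genes, written from general knowledge, were chosen with earlier results of these data known. Named were all 9 genes, up to 2 called genes with the largest rise and fall per list and comparison (not all are printed), and the 3 genes most like each. *Gclm*, *Gclc* and *Slc40a1* were named by the last part. *Slc48a1* and *Fech* were named for list membership only. Protein sequences were not used here.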

Additional observations from a re-analysis of the deposited data

Results flagged for a closer look

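MT+FAC and Lip-1+FAC differed for 2 of the 9 genes by edgeR's test of one against the other. *Maff* was lower in MT+FAC by a log2 fold change of -0.50 and *Sqstm1* by -0.37. The *Maff* call was lost without Lip-1+FAC replicate 1 or 2 or MT+FAC replicate 1 or 3. No test of single libraries standing apart was run, since groups of 3 are too small for it.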

How the results depend on the processing

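Over 23 alternatives per comparison, 1209 of 1242 values of the 9 genes stayed on their side of the threshold, 26 lost a call and 7 gained one. No value called in either setting changed sign, but 40 uncalled ones did, over 13 gene and comparison pairs, with sizes of at most 0.12 on the log2 scale. They were values of *Keap1*, *Mafg*, *Maff*, *Sqstm1*, *Osgin1*, *Nfe2l1* and *Nfe2l2*. Leaving out 1 library at a time, the number of the 9 genes called was 2 to 5 in Lip-1+FAC against FAC (2 without FAC replicate 1), 3 to 5 in MT+FAC against FAC (3 without MT+FAC replicate 3) and 1 to 3 in MT+FAC against Lip-1+FAC; the cause was not tested. Over all genes, the 182 calls of MT+FAC against Lip-1+FAC became 477 without a filter on low counts, 312 with only the compared libraries, 462 with DESeq2, and 74 (without MT+FAC replicate 3) to 255 when 1 library was left out. The share of higher calls there was 34.6%, against 49.7% without a filter, 46.7% with upper-quartile scaling, 45.9% with DESeq2, 17.1% without Lip-1+FAC replicate 1, 51.3% without MT+FAC replicate 1, 22.1% and 23.0% without MT+FAC replicates 2 and 3. With the replicate block, calls among the 9 genes were 8, 5, 5, 2, 7 and 5 in FAC against Control, Lip-1+FAC and MT+FAC against FAC, MT+FAC against Lip-1+FAC, and Lip-1+FAC and MT+FAC against Control, and 193 genes in all were called between the pretreated groups; 4 of 12 libraries correlated best with one of their own number. Thinning all libraries to the depth of the smallest changed no call of the 9 genes.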
